A study of Mus musculus with 6 samples.

Results

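Genes of cholesterol and fatty acid synthesis were examined in 3T3 cells, a fibroblast line established from mouse embryos, after transfection with a GapmeR against the lncRNA Ntep. The set comprised 33 genes, chosen by gene name, out of 35527 gene names on the array. They were covered by 49 of the 55681 probes. All 33 had at least 1 probe that passed the intensity limit, of 22094 gene names that did. A GapmeR is an antisense oligonucleotide with a DNA core, and RNase H cuts the RNA it pairs with. Both groups were the same line in the same serum-containing medium and received either GapmeR Ntep or GapmeR control, each labelled as 50 nM for 48 h. The groups held 3 cultures each, 1 of each per experiment in 3 independent experiments, and total RNA of each culture was hybridised to its own Agilent array in 1 colour. The profiling asked which transcripts differ 48 h after Ntep silencing.

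Cholesterol is built from acetyl-CoA. The mevalonate arm makes isoprenoid units, which squalene synthase joins, and the squalene formed is closed to lanosterol and trimmed to cholesterol by a chain of oxidases and reductases. Most of these genes, and those of fatty acid synthesis, are transcribed under SREBP factors, which the sterol sensor Scap carries out of the endoplasmic reticulum when sterols are low and which the Insig proteins hold back when sterols are high. In fibroblasts the pathway feeds membranes of growing cells.

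Values are probe intensities after quantile normalization between arrays, called signal here, and differences are GapmeR Ntep minus GapmeR control on the log2 scale. Each gene is read by its brightest probe, and signals of different genes are not compared, since probes differ in how well they bind. On all 6 arrays, the brightest probe of each of the 33 genes was well above background. This was true of 43.7% to 53.3% of all probes per array, a share that includes the dimmer probes of each gene. Some dimmer probes of the set were not above background. No probe was saturated. The 1 probe for Ntep, named A630089N07Rik in the files, read 471.9, 91.45 and 226.2 where experiments 1 to 3 were labelled GapmeR Ntep and 271.4, 272.4 and 361.2 where they were labelled GapmeR control. It was lower in 2 of 3 experiments and went against its label in experiment 1 (log2 difference -0.48, SE 0.58, limma adjusted p = 0.632), so directions below are those of the labels. An exact two-sided permutation test gave p = 0.7, with 0.1 the lowest p this design allows. This probe turned to a difference of 0.13 once GapmeR Ntep replicate 2 was left out. GapmeR Ntep replicate 2 correlated at 0.982 with its own label and 0.983 with the other.

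Of the 33 genes, 2 rose with GapmeR Ntep and none fell after adjustment over all tested probes (limma, Benjamini-Hochberg adjusted p under 0.05). The 2 were Insig1, which retains the SREBP precursors in the endoplasmic reticulum and is itself a sterol-responsive gene, and Cyp51, the lanosterol demethylase. They make up 6.06% of the set, while 1.98% of all tested genes were called higher and 3.17% lower. Unadjusted p under 0.05 was reached by 6 genes higher and 3 lower, and by 12.3% and 12.6% of all tested genes. By the limits the study applied, a fold of 2 or more with an unadjusted p under 0.01, Insig1 was the 1 gene higher (2.88% of all genes) and no gene was lower (4.99% of all genes). In 9 genes all 3 GapmeR Ntep arrays lay above all 3 control arrays, 27.3% of the set against 17.1% of all tested genes. In 4 genes they all lay below, 12.1% against 15.4%. The median difference of the set was 0.11 and that of all tested genes 0.06.

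By role, the median difference was 0.34 over the 7 genes of the mevalonate arm and 0.31 over the 11 genes from squalene to cholesterol. It was -0.10 over the 6 genes of SREBP control and sterol transfer and -0.16 over the 9 genes of fatty acid synthesis. These medians carry no test. Leaving out single arrays moved them to 0.20 to 0.42, 0.081 to 0.46, -0.27 to 0.14 and -0.32 to 0.059, so that the last 2 changed sign.

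The adjusted calls depended on the processing. Scaling to the 75th percentile ended that of Cyp51 (adjusted p 0.0549) and testing all probes that of Insig1 (0.077), and the methods' t-test called neither (0.0526 and 0.0787). Leaving out any 1 of the 6 arrays left 0 of the 33 genes called higher, and without experiment 1 none was called higher and Tm7sf2 alone lower.

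Arrays of the same experiment deviated together, and with experiments as blocks the calls came to 3 genes higher (Insig1, Cyp51 and Lss) and 3 lower (Mvk, Tm7sf2 and Fads2). That is 9.09% of the set in each direction, where the blocked fit called 6.49% of all tested genes higher and 7.4% lower. Blocked adjusted p-values are given below for these genes.

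**Figure D1:**
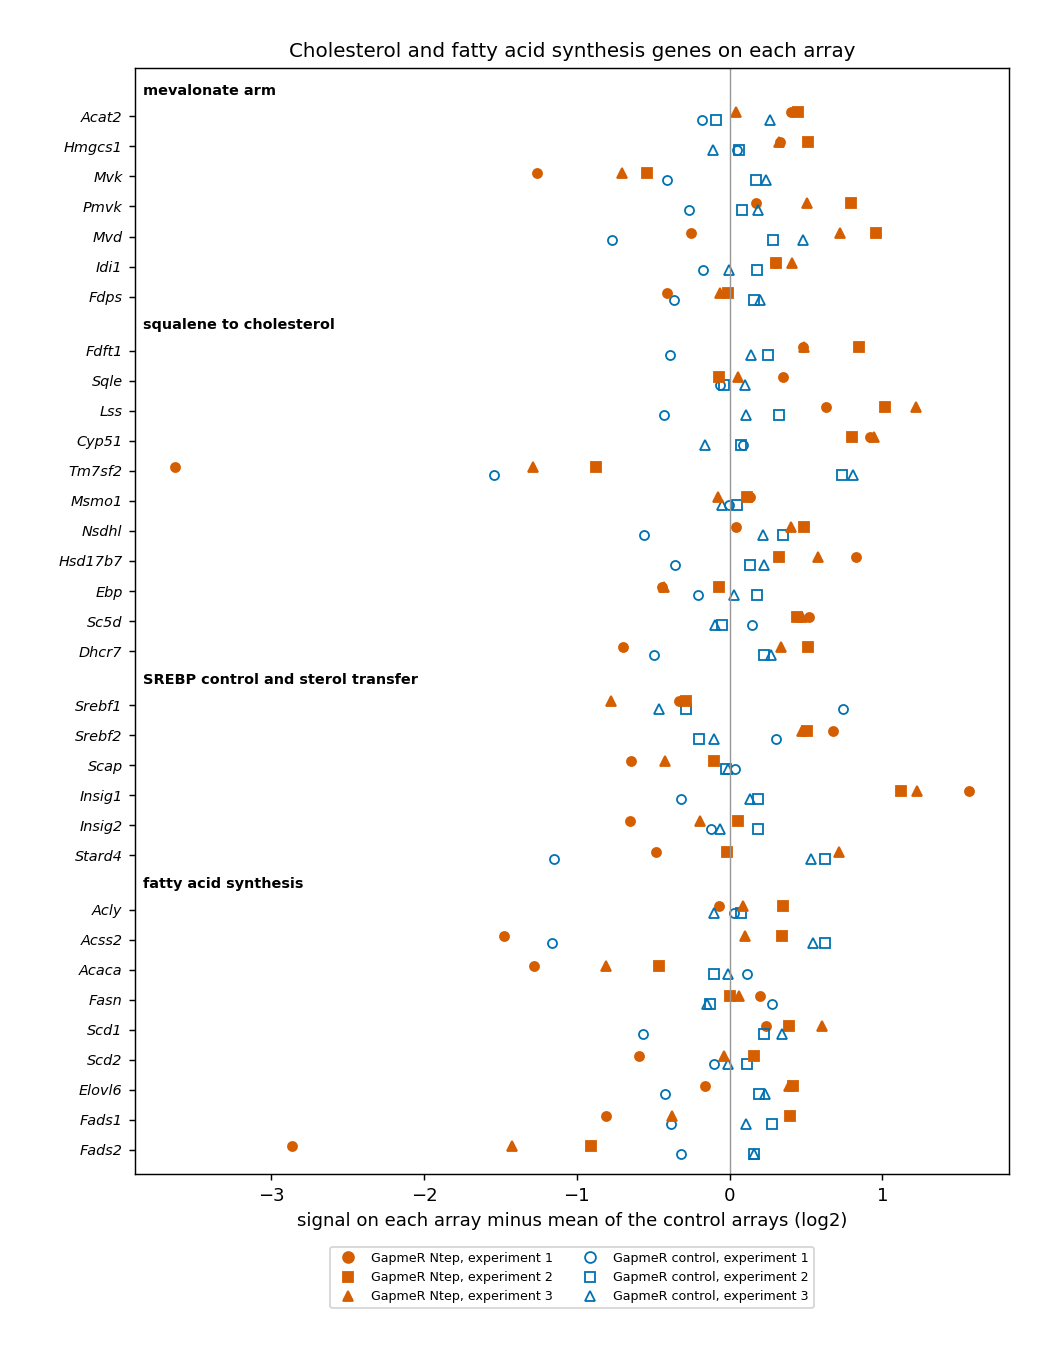
Signal of the 33 genes on each of the 6 arrays, by role, as the log2 difference from the mean of the 3 control arrays of the same gene. Filled orange symbols are GapmeR Ntep and open blue symbols GapmeR control, and the symbol shape gives the experiment. Insig1, Cyp51 and Lss have all GapmeR Ntep arrays on the right of all control arrays, and Fads2, Acaca and Mvk have them on the left.

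Cell type markers were summed on each array beside the set. Such a sum is dominated by its brightest probes. The summed signal of the 12 fibroblast markers (9 of them above background on all arrays, with Col1a1, Col3a1 and Vim among them) was 555876 to 737725 with GapmeR Ntep and 808933 to 892310 with GapmeR control. That of the 10 macrophage markers (6 above background on all arrays) was 43182 to 75622 against 21228 to 27942, carried by Itgam, Cd68 and Cd14. Cd68 differed by 1.21 (adjusted p 0.0287) and Cd14 by 1.11 (0.0627). Itgam differed by 1.255 (0.0881), but its second tested probe by -0.03 (0.956). Csf1r had the largest difference of the list, at 4901, 2227 and 1196 against 1403, 142.3 and 86.71. That difference was 3.19 (adjusted p 0.151, blocked 0.0387), and its second tested probe gave 0.44 (0.267). On the same list, Ptprc, Emr1 and Tyrobp were above background on no array. Aif1 was lower in each experiment (difference -1.28, blocked adjusted p 0.0421). The 10 adipocyte markers (3 above background on all arrays) summed to 33066 to 60245 against 47207 to 80113, mostly through Lpl, and Cidec and Lep were above background on no array. Slc2a4, also above background on all arrays, was lower in each experiment (difference -1.38, adjusted p 0.268). Fabp4 went the other way, at 6498, 1495 and 2262 against 549.2, 672.0 and 721.7 (difference 2.12, adjusted p 0.0765). Pck1 was above background on all GapmeR Ntep arrays and no control array. It read 89.41, 37.97 and 107.4 against 23.94, 21.9 and 20, near the floor of 20 (adjusted p 0.067). The 8 epithelial markers (3 above background on all arrays, Krt8, Krt18 and Krt19) summed to 6070 to 7824 against 4568 to 7156. The part of these shifts in the lipid gene differences was not tested. In bulk RNA, fewer cells of a type and less RNA per cell cannot be told apart.

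By brightest probe, the largest rise of the set was in SREBP control. Insig1 read 2210, 1624 and 1742 with GapmeR Ntep in experiments 1 to 3 and 598.5, 849.3 and 816.7 with GapmeR control. Every GapmeR Ntep array was thus above every control array, with means of 1859 ± 310.0 and 754.8 ± 136.4 (SD, n = 3 each). The difference was 1.30 (SE 0.22), a fold of 2.47, with a limma adjusted p of 0.0359 and a blocked one of 0.0465. Experiment 1 gave the widest gap, 1.88, against 0.94 and 1.09 in the others. Leaving out single arrays moved the adjusted p to between 0.0516 and 0.139. Its probe lies at chr5:28404246-28404305 of mm9, the build of the array files, for which no gene models were used here, so its place in exons is not given.

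Srebf2, which encodes the SREBP factor most tied to sterol genes, read 5106, 4541 and 4436 against 3939, 2783 and 2975. The arrays did not overlap, but the difference of 0.55 (SE 0.20) had an adjusted p of 0.156. A second Srebf2 probe differed by 0.82 (adjusted p 0.12), also without overlap. Srebf1, the factor more tied to fatty acid genes, read 401.4, 415.2 and 294.8 against 847.2, 415.5 and 366.9. Its difference of -0.46 (adjusted p 0.468) came mostly from the high control array of experiment 1, and in experiment 2 the arrays were level.

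Insig2, the paralogue of Insig1, differed by -0.26 (adjusted p 0.514), and its second probe by -0.19. Scap, the escort of the SREBP precursors, read 19604, 28623 and 22899 against 31416, 30198 and 30394, so that all GapmeR Ntep arrays were lower, with a difference of -0.39 (adjusted p 0.275). The control arrays of Scap lay close together, and GapmeR Ntep replicate 2 was close to them.

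Stard4, a soluble carrier of sterols between membranes, gave 2 answers. Its brightest probe read 6091, 8420 and 14003 against 3836, 13108 and 12314, a difference of 0.07 (SE 0.57, adjusted p 0.949). Its other probe, for the same transcript accession, read 8362, 4434 and 6869 against 1972, 1985 and 1826, a difference of 1.72 (SE 0.26, adjusted p 0.0312, blocked 0.0345). On the first probe the groups overlapped and both arrays of experiment 1 were the lowest of their label. On the second every GapmeR Ntep array was above every control array, and the control arrays nearly coincided. Both probes were well above background on all 6 arrays, so whether Stard4 differed depends on the probe. With the mean over each gene's probes in place of the brightest one, the median of the 6 SREBP control and sterol transfer genes turned from -0.10 to 0.23.

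From squalene to cholesterol, 9 of 11 genes had a positive difference, 1 of them called (Cyp51), and 2 a negative one. Cyp51 read 4047, 3734 and 4128 against 2277, 2253 and 1911. The groups were far apart for their spread, with means of 3970 ± 207.6 and 2147 ± 204.6 (SD, n = 3 each). Cyp51 rose by 0.89 (SE 0.16), a fold of 1.85, with a limma adjusted p of 0.0401 and a blocked one of 0.0422. Experiments 1 to 3 gave 0.83, 0.73 and 1.11. Leaving out single arrays moved the adjusted p to between 0.058 and 0.164. The Cyp51 probe lies at chr5:4081471-4081530 of mm9.

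Lss, lanosterol synthase, which closes squalene epoxide into the first sterol, read 2580, 3378 and 3875 against 1236, 2085 and 1800. All GapmeR Ntep arrays were above all control arrays, and both arrays of experiment 1 were the lowest of their label. The difference of 0.95 (SE 0.27) missed the threshold without blocks (adjusted p 0.0967) and passed it with them (0.0407). Fdft1, squalene synthase, read 30476, 39419 and 30629 against 16744, 26037 and 24081. Its arrays did not overlap either, with a difference of 0.60 (SE 0.24, adjusted p 0.184). A second Fdft1 probe was above background on no array and was not tested.

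Sc5d, the sterol desaturase near the end of the pathway, read 62574, 59216 and 60702 against 48337, 42065 and 40833. Its difference was small and even over experiments, at 0.37, 0.49 and 0.57, with no overlap and an adjusted p of 0.132. Hsd17b7, the ketosteroid reductase of sterol C4 demethylation, read 5845, 4129 and 4932 against 2573, 3617 and 3867, a difference of 0.58 (adjusted p 0.203). Its groups did not overlap, and experiment 1 stood out with 1.18 against 0.19 and 0.35. The 2 other Hsd17b7 probes differed by 1.03 (adjusted p 0.0814) and 0.56.

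Tm7sf2, a sterol reductase that acts on the product of Cyp51, ran the other way. It read 367.6, 2479 and 1867 with GapmeR Ntep and 1562, 7561 and 7968 with GapmeR control. The experiments lay at different levels, so that the groups overlapped through the control array of experiment 1, yet GapmeR Ntep was the lower array in each experiment, with differences of -2.09, -1.61 and -2.09. The mean difference of -1.93 had an SE of 0.95 and an adjusted p of 0.267 without blocks, and an SE of 0.17 and an adjusted p of 0.031 with them. A second, dimmer probe differed by -1.83 (blocked adjusted p 0.031) and was above background on 2 of 3 GapmeR Ntep arrays and all control arrays. Ebp, the sterol isomerase, was the other gene with a negative difference, -0.31 (adjusted p 0.376).

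The remaining 4 genes of this stretch overlapped between groups and were not called. Sqle, squalene epoxidase, differed by 0.11 (95% interval -0.33 to 0.55). Msmo1, the methylsterol oxidase, differed by 0.06 (-0.33 to 0.44) and Dhcr7, the last reductase of one branch, by 0.05 (-0.91 to 1.01). For Nsdhl, a sterol dehydrogenase, the brightest probe gave 0.31 (adjusted p 0.54) and the second -0.31 (adjusted p 0.499), the 1 gene of the 12 with several tested probes whose probes pointed in opposite directions.

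**Figure D2:**
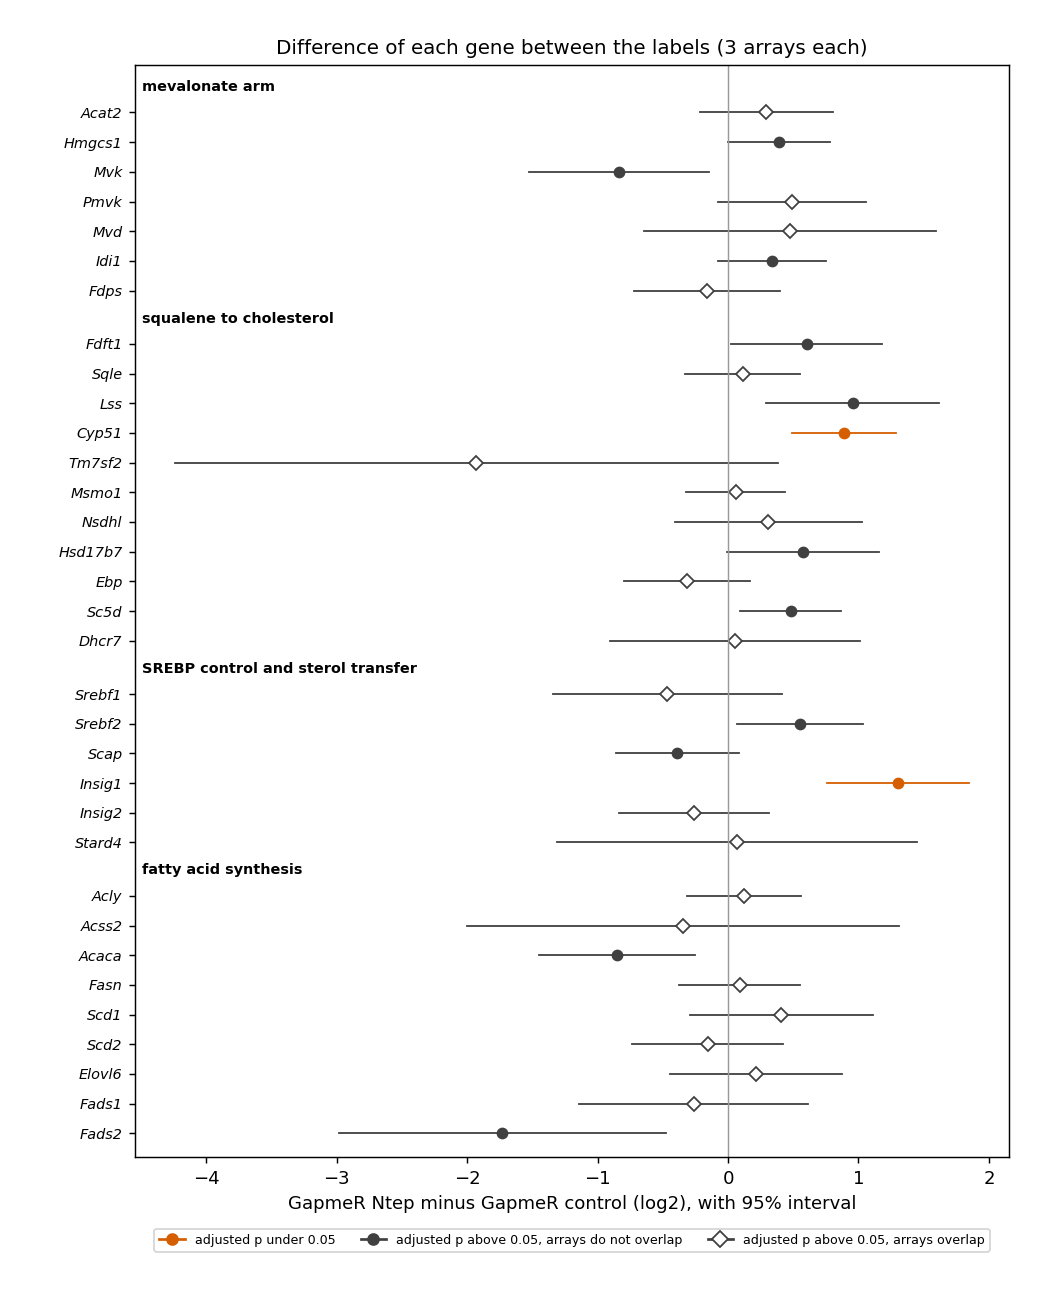
Log2 difference between GapmeR Ntep and GapmeR control for each of the 33 genes, by role, with the 95% interval of the unpaired limma fit (3 arrays each). Orange marks an adjusted p under 0.05 (Insig1 and Cyp51), filled grey circles genes whose arrays did not overlap, and open diamonds genes whose arrays did. The widest interval belongs to Tm7sf2, whose experiments lay at different levels.

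In the mevalonate arm, 5 of 7 genes had a positive difference and none was called in either direction without blocks. Hmgcs1, which makes the HMG-CoA from which mevalonate is formed, read 116428, 131900 and 115773 against 95532, 96666 and 85744. Its groups did not overlap, at a difference of 0.39 (SE 0.16, adjusted p 0.2). Idi1, which isomerises the isoprenoid unit, read 105820, 106605 and 114653 against 76407, 97643 and 86000, also without overlap, at 0.34 (adjusted p 0.278).

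Mvk, mevalonate kinase, stood against its neighbours. It read 7779, 12810 and 11441 against 14080, 21010 and 21995. All GapmeR Ntep arrays were below all control arrays, and both arrays of experiment 1 were the lowest of their label. The difference of -0.84 (SE 0.28) had an adjusted p of 0.138 without blocks and 0.0404 with them, from -0.86, -0.71 and -0.94 in the experiments. A second Mvk probe differed by -0.83 (blocked adjusted p 0.0494).

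The kinase after it, Pmvk, differed by 0.49 (adjusted p 0.256), and its second probe by 0.32. Mvd, the decarboxylase that follows, differed by 0.48 (adjusted p 0.546), with all 3 experiments positive but levels that varied with the experiment. Acat2, the thiolase of the first step, differed by 0.29 (adjusted p 0.43) with experiment 3 negative, at -0.23. Fdps, farnesyl diphosphate synthase, differed by -0.16 (adjusted p 0.686).

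In fatty acid synthesis, 4 of 9 genes had a positive difference and 5 a negative one, and none was called without blocks. Fads2, a desaturase of polyunsaturated fatty acid synthesis, read 356.1, 1386 and 967.5 against 2078, 2894 and 2902. All GapmeR Ntep arrays were below all control arrays, and that of experiment 1 was far below the rest. The difference of -1.73 (SE 0.51) had an adjusted p of 0.106 without blocks and 0.0475 with them, from -2.55, -1.06 and -1.58 in the experiments. The second Fads2 probe differed by -1.56 (blocked adjusted p 0.0529). Fads1, the desaturase that acts after it, differed by -0.26 (adjusted p 0.673), with experiment 2 positive at 0.12.

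Acaca, the acetyl-CoA carboxylase that makes malonyl-CoA for chain growth, read 16629, 29368 and 23037 against 43640, 37684 and 40149. The groups did not overlap, and the 3 experiments differed in size, at -1.39, -0.36 and -0.80. The mean difference of -0.85 (SE 0.25) missed the threshold at an adjusted p of 0.1 and, with blocks, 0.0933. The 2 other tested Acaca probes gave -0.90 each. The brighter of them covers nearly the same bases as the brightest probe. The dimmer was above background on 1 of 3 GapmeR Ntep arrays and all control arrays.

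Fasn, the synthase that builds palmitate, read 805.3, 703.4 and 729.7 against 848.6, 640.6 and 633.0, with overlap. Its difference of 0.09 had a 95% interval of -0.37 to 0.55, so a change of the size seen for Acaca lies outside it. Acly, which makes cytosolic acetyl-CoA from citrate, differed by 0.12 (adjusted p 0.698), and its dim second probe by 0.63 (adjusted p 0.206). Acss2, which makes it from acetate, read 1796, 6355 and 5365 against 2232, 7701 and 7295. Both arrays of experiment 1 were far below the others, and the difference of -0.34 was negative in each experiment (adjusted p 0.779, blocked 0.159).

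The desaturase Scd1 differed by 0.41 (adjusted p 0.421), its close paralogue Scd2 by -0.16 (0.708) and the elongase Elovl6 by 0.22 (0.646). All 3 overlapped between groups.

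**Figure D3:**
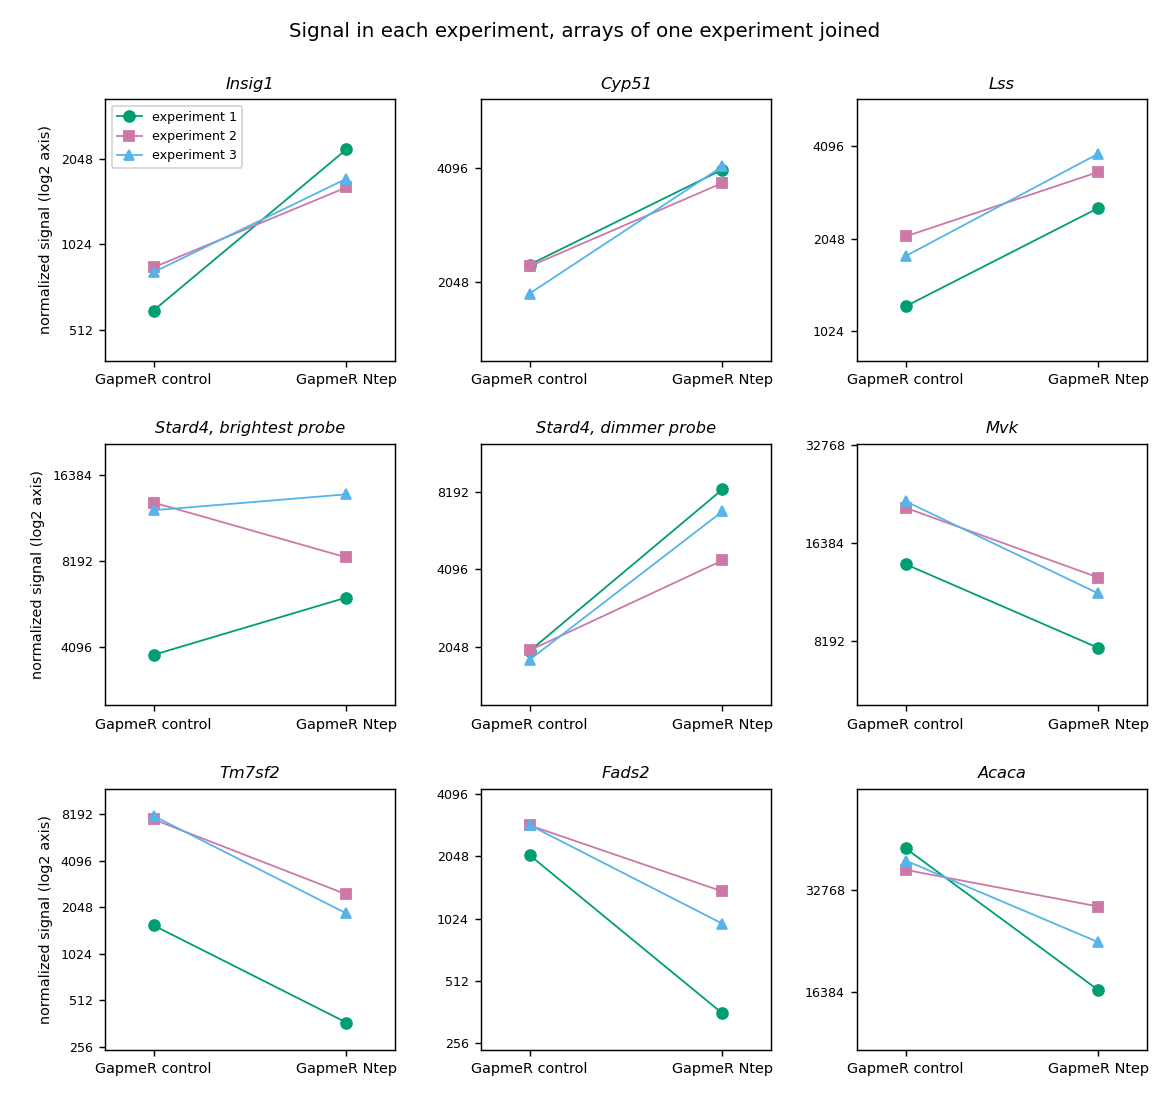
Normalized signal (log2 axis) of 9 probes under GapmeR control and GapmeR Ntep, with the 2 arrays of an experiment joined by a line. The lines of Tm7sf2, Mvk and Fads2 fall in each experiment from different starting levels, those of Insig1, Cyp51 and Lss climb in each, and the 2 Stard4 probes differ from each other.

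Of the 33 genes, 14 were higher in all 3 experiments and 10 lower in all 3, 42.4% and 30.3% of the set against 32.4% and 26.9% of all tested genes. Apart from the GapmeR, experiment 1 was low for much of the set. In 19 genes, 57.6%, the array of experiment 1 was the lowest of its label under both GapmeRs, against 24.3% of all tested genes. In 3 genes (Sc5d, Srebf2 and Fasn) it was the highest under both, 9.09% against 27.1%. Measured against the mean of experiments 2 and 3, experiment 1 differed for Tm7sf2 by -2.31 with GapmeR control and -2.55 with GapmeR Ntep. For Acss2 these values were -1.75 and -1.70, and for Mvd -1.15 and -1.09. These are values of 1 culture per label, with no test.

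**Figure D4:**
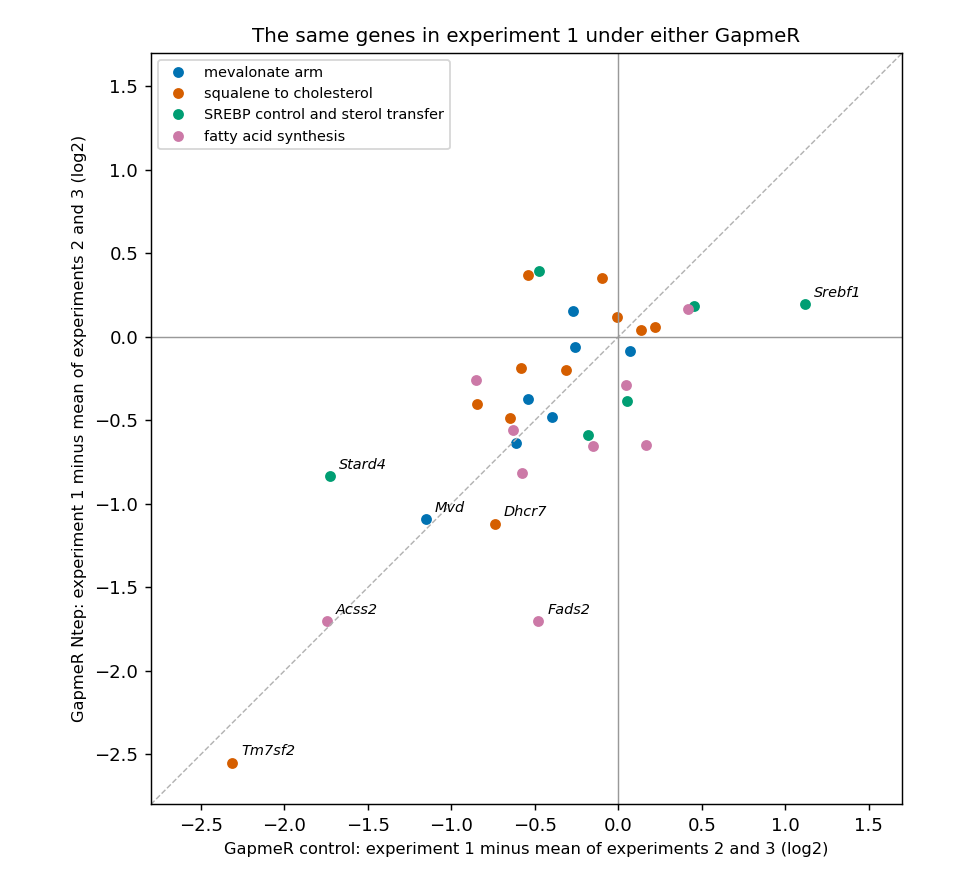
Log2 difference of experiment 1 from the mean of experiments 2 and 3 for each of the 33 genes, under GapmeR control (horizontal axis) and GapmeR Ntep (vertical axis), coloured by role. The dashed line marks equal values, and most genes lie in the lower left, with Tm7sf2 and Acss2 farthest along the line.

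Of the 12 genes with several tested probes, 11 had all probes in the same direction, and in 8 the probes were within 0.35 of each other on the log2 scale. Mvk, Tm7sf2, Fads2 and Acaca were among the latter. The negative differences of Mvk, Tm7sf2 and Fads2 were thus seen by more than 1 probe. For Acaca the 2 brightest probes cover nearly the same bases (chr11:84215093-84215152 and chr11:84215094-84215153 of mm9), so they are not separate readings. Stard4, Nsdhl, Acly and Hsd17b7 were the 4 whose probes spread further. Insig1, Cyp51 and Lss were each read by 1 probe.

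SREBP factors bind sterol regulatory elements and act together with NF-Y, which binds CCAAT, and Sp1, which binds GC boxes. The 250 bases before each RefSeq start of a gene (GRCm38.p6) were therefore searched on both strands, and 26 of the 33 genes had an entry. There were 32851 starts for 27025 genes, and a gene was counted if any of its starts matched. Some genes, Insig2, Dhcr7 and Srebf1 among them, had several starts. CCAAT was present in 20 of 26 genes (76.9%), against 37.5% of 27025 genes in the table. These 27025 were not limited to genes detected on the arrays. The shares here and below therefore do not set the lipid genes apart from other expressed genes. GGGCGG was present in 22 (84.6% against 35.4%) and CACGTG, an E-box, in 5 (19.2% against 6.86%). The sterol regulatory element letters TCACCCCAC were present in 1, Hmgcs1 (3.85% against 0.555%), and TCACNCCAC, which includes them, in the same 1 gene (against 1.22%). Of these motifs, TCACNCCAC is the 1 that contains another. CCAAT was present in all 8 genes with an entry whose GapmeR Ntep arrays lay above the control arrays. Of the 4 whose arrays lay below, it was present in 1 (Mvk, with 5 matches) and absent in Acaca, Fads2 and Scap. Of the 14 whose arrays overlapped it was present in 11. Tm7sf2, lower in each experiment (blocked adjusted p 0.031), was among these 11. Whether CCAAT goes with the direction of change was not tested. A match describes the letters only and is not a measured site.

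The upstream windows of 5 genes with all GapmeR Ntep arrays above the controls are shown beside that of Fads2, the gene of largest negative difference among those with no overlap, to let the letters be compared. Each runs 5′ to 3′ along its gene, in coordinates of GRCm38.p6. Capitals mark CCAAT on either strand, the E-box letters and the sterol regulatory element letters. GGGCGG is left in lower case. Mvk and Tm7sf2, which were lower in each experiment and hold CCAAT, are not shown. The Insig1 window overlaps the annotated gene Gm35223, and the others overlap no annotated gene.
Insig1, upstream of the start on the plus strand at chr5:28071162-28071411: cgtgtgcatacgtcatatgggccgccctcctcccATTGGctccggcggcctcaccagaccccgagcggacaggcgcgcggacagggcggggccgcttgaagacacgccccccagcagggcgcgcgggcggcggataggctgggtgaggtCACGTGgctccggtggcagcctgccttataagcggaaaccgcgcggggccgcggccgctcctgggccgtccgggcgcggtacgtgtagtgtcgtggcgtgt
Cyp51, upstream of the start on the minus strand at chr5:4104698-4104947: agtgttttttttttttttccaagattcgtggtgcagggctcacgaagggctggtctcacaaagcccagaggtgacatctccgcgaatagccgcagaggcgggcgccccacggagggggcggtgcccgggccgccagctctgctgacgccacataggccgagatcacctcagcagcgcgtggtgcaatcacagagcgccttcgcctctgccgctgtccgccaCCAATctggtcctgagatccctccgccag
Sc5d, upstream of the start on the minus strand at chr9:42264301-42264550: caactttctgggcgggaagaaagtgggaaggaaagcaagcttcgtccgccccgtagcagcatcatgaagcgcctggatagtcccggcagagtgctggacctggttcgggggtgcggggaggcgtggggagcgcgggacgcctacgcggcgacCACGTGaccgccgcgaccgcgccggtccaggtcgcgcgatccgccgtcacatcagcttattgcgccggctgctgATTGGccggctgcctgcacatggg
Hmgcs1, upstream of the start on the plus strand at chr13:119690101-119690350: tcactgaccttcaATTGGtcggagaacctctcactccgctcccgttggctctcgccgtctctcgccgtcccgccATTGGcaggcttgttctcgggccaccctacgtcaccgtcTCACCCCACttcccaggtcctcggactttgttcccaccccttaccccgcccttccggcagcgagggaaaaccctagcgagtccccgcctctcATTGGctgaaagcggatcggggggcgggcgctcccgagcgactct
Srebf2, upstream of the start on the plus strand at chr15:82147019-82147268: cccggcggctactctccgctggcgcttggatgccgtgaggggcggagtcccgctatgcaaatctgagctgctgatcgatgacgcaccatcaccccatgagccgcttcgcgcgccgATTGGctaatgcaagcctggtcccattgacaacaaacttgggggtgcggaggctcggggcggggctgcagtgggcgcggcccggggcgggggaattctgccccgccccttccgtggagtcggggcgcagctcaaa
Fads2, upstream of the start on the minus strand at chr19:10101504-10101753: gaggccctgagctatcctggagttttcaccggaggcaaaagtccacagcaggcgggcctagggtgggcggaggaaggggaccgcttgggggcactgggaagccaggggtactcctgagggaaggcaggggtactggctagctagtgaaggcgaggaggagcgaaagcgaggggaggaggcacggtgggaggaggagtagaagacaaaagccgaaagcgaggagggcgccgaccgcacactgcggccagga
Hmgcs1 holds 3 CCAAT matches around its TCACCCCAC, and Insig1 and Sc5d pair 1 CCAAT with a CACGTG. Cyp51 and Srebf2 have 1 CCAAT each. Fads2 has no capitals, though its window holds GGGCGG.

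Neighbouring steps were read from 5 further lists holding 62 genes, of which 59 were tested. After adjustment 3 of the 59 rose (5.08%, against 1.98% of all tested genes) and 2 fell (3.39% against 3.17%), and the median difference was -0.02. Leaving out single arrays left 0 to 2 called higher and 0 to 2 lower. The methods' t-test called 0 lower and 1 higher, Mid1ip1, which was not among the 3. Among users of nonsterol isoprenoids (15 genes, median 0.41, 10 positive), Icmt, the methyltransferase that finishes prenylated proteins, rose by 1.20 (SE 0.22, adjusted p 0.0392). Its other probes gave 0.44 (adjusted p 0.441) and 1.27 (0.159), and the mean over its probes, 0.97, was not called (adjusted p 0.132). Fnta, the alpha subunit shared by the prenyltransferases, fell by 1.13 on the log2 scale (SE 0.20, adjusted p 0.0373). Nus1, a subunit of the dolichol-making prenyltransferase, read 54877, 32644 and 37605 against 25094, 11983 and 12263, a difference of 1.40 that passed with blocks (adjusted p 0.0813, blocked 0.0323). Its second probe, for the same accession, was lower in each experiment, at -0.17 (adjusted p 0.58).

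Among genes of fatty acid elongation, activation and glycerolipids (18 genes, median -0.07), 2 rose and 1 fell. Elovl5, the elongase of polyunsaturated fatty acids that works on the products of Fads2, read 9693, 16105 and 12186 against 30904, 32465 and 32310. It fell by 1.36 on the log2 scale (SE 0.23, adjusted p 0.0343) with no overlap. Elovl7, another elongase, read 892.2, 693.1 and 618.7 against 253.4, 275.8 and 291.7 and rose by 1.41 (SE 0.20, adjusted p 0.0281). Lpin2, a phosphatidate phosphatase of glycerolipid synthesis, rose by 0.98 (SE 0.17, adjusted p 0.0366).

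No gene was called in the other 3 lists. Of 9 genes of SREBP cleavage and sterol-regulated degradation (median -0.21, 2 positive and 7 negative), Faf2, an adaptor of endoplasmic reticulum degradation, had the smallest p, with a difference of 0.45 (adjusted p 0.144). Of 8 genes of citrate export and NADPH supply (median 0.01), it was Mid1ip1, a regulator of acetyl-CoA carboxylase, at 0.68 (adjusted p 0.0591). Of the 12 genes of sterol esters, oxysterols and lysosomal release, 9 were tested (median -0.21, 3 positive and 6 negative). Npc2, which takes cholesterol out of the lysosome, differed by -1.07 (adjusted p 0.0633, blocked 0.0368), and Nr1h3, an oxysterol receptor, by -1.32 (adjusted p 0.0814, blocked 0.0356).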

How the data were processed

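Total RNA of 6 cultures was hybridised to 6 arrays, all on 1 slide by the file headers. The authors extracted the scans with Agilent Feature Extraction 10.7.3.1 (per the submitters' processing notes) and deposited background-subtracted intensities on a linear scale, not normalized between arrays, and a table of quantile-normalized intensities with values under 20 set to 20. Here spots of a probe were averaged, control spots removed, arrays quantile normalized, values under 20 set to 20 and log2 values compared by an unpaired, two-sided limma fit (limma 3.58.1, R 4.3.3). A probe entered the test if either group's mean reached 50, which 30990 of 55681 did, and Benjamini-Hochberg adjustment ran over these. The values differed from the authors' table by at most 1.78% over the probes of the set. Array number (3 per label) limits the precision. Motifs were searched with Python 3.11.15 and pandas 2.3.3.

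The study's sample list places the arrays in 3 experiments by culture day. Residuals of arrays of the same experiment correlated at 0.466, 0.3 and 0.254 and of other pairs at -0.327 to 0.126, so a fit with experiments as blocks is given where it changes a call. Genes named are all members, and in the other lists those called, past a fold of 2 with p under 0.01, or of smallest p. Members and lists were chosen with earlier results of these data known. The unblocked fit was tested on simulated data with arrays drawn independently of experiment, so the fit with blocks was not covered. Alternatives covered normalization, background, floor, filter, outlier spots, weights, test, probe rule and omission of arrays. One, a spread estimated over all probes, was chosen after seeing the data.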

Additional observations from a re-analysis of the deposited data

How the results depend on the processing

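Median and single-gene differences are on the log2 scale. Scaling to the 75th percentile moved the median of all tested genes by 0.16, so its medians are also given relative to that of all genes. There, 1 gene of the set was called higher (Insig1, with Cyp51 at an adjusted p of 0.0549), 1 gene of the other lists lower and 2 lower at the fold limit. Its medians were 0.31 for all 33 genes (0.09 relative to all genes), 0.52 for the mevalonate arm (0.30), -0.0055 for SREBP control and sterol transfer (-0.22), 0.069 for fatty acid synthesis (-0.15), -0.18 for SREBP cleavage (-0.40) and 0.19 for citrate and NADPH (-0.02). Fdps (0.064) and Scd2 (0.069) changed sign. Normexp with an offset of 50, under which the intensity limit removed no probe, gave 5 genes of the other lists called higher and medians of -0.094 for citrate and NADPH and -0.096 for sterol esters, and Msmo1 changed sign (-0.25). With no filter on dim probes, 1 gene of the set was called higher (Cyp51, with Insig1 at 0.077), none of the other lists lower, and the sterol ester median was -0.11.

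The replicate block (experiments paired) gave 3 genes of the set called lower, 2 lower at the fold limit (Tm7sf2 and Fads2), and in the other lists 5 called higher and 4 lower, and ended no call of the set. Array weights, under which 10260 probes of the array were called, gave 5 genes of the set higher, 5 lower and 2 lower at the fold limit. In the other lists they gave 13 higher and 6 lower, with medians of 0.16 for squalene to cholesterol and 0.36 for isoprenoid use and Msmo1 at -0.031. The methods' t-test called 0 genes of the set after adjustment, and in the other lists 1 higher (Mid1ip1), 0 lower and 2 lower at the fold limit. Without experiment 1, 0 genes of the set were called higher, 1 lower (Tm7sf2) and 2 lower at the fold limit. In the other lists 1 was called higher (Nus1), 0 lower and 1 lower at the fold limit. Medians were then 0.18 for squalene to cholesterol, 0.37 for isoprenoid use and 0.11 for elongation and glycerolipids, and Sqle (-0.036), Stard4 (-0.22) and Scd2 (0.0085) changed sign. The mean over a gene's probes gave medians of 0.11 for squalene to cholesterol, 0.23 for SREBP control and sterol transfer, 0.16 for isoprenoid use, -0.36 for SREBP cleavage and -0.33 for sterol esters. Spread over all probes gave 6 genes of the other lists called higher.

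Leaving out single arrays, which also leaves fewer samples, gave 0 genes of the set called in either direction each time, and at the fold limit 1 higher each time (Insig1) and 0 to 2 lower. Without GapmeR control replicate 2 or GapmeR Ntep replicate 3, no probe of the array was called. In the other lists 0 to 2 were called higher and 0 to 2 lower, and 2 to 3 higher and 2 to 3 lower passed the fold limit. Medians ranged from 0.056 to 0.24 for all 33 genes, 0.20 to 0.42 for the mevalonate arm, 0.081 to 0.46 for squalene to cholesterol, -0.27 to 0.14 for SREBP control and sterol transfer and -0.32 to 0.059 for fatty acid synthesis. They ranged from 0.25 to 0.42 for isoprenoid use, -0.31 to -0.14 for SREBP cleavage, -0.12 to 0.12 for citrate and NADPH, -0.12 to 0.11 for elongation and glycerolipids and -0.33 to -0.074 for sterol esters. Single genes that changed sign were Sqle (-0.0054 to 0.20), Acss2 (-0.92 to 0.22), Scd2 (-0.32 to 0.059), Fads1 (-0.60 to 0.0085), Dhcr7 (-0.19 to 0.42) and Stard4 (-0.51 to 0.39). The Ntep probe ranged from -1.09 to 0.13. The causes of these shifts were not tested. With the authors' own value table, a floor of 1, an intensity limit of 100 and omission of outlier spots, each count stayed within 1.5 times its value and each median moved by less than the spread between experiments. Under the limit of 100, Mid1ip1 and Npc2 passed the adjusted threshold. The slide could not be fitted as a block, since all arrays share it.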
